A study of Mus musculus with 8 samples.

Results

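The subunits of the proteasome and the E2 ubiquitin-conjugating enzymes were followed in the prefrontal cortex (PFC) of mice that overexpressed *Rnf146* in neurons. The genes were chosen by name. Of the 15039 genes in the deposited table, 47 had a symbol that begins with *Psm*, a letter from *a* to *g* and a digit, and 34 had a symbol that begins with *Ube2*. Most of the 47 are subunits, activators or assembly factors of the proteasome, and most of the 34 are E2 enzymes. The 2 groups are described apart. The rows *Psmc3ip*, *Psme3ip1*, *Ube2cbp*, *Ube2d-ps* and *Ube2n-ps1* carry such a symbol but encode neither a subunit nor an E2 enzyme, since they are a recombination factor, an interacting protein, a ubiquitin ligase and 2 pseudogenes.

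Ubiquitin reaches a protein in a relay. An E1 enzyme activates it, an E2 enzyme carries it, and an E3 ligase such as RNF146 brings the loaded E2 together with the substrate. RNF146 recognizes proteins that bear poly(ADP-ribose), among them axin, a scaffold of the complex that destroys beta-catenin. Proteins marked with a ubiquitin chain are then degraded by the proteasome, a barrel of alpha and beta subunits whose cap holds a ring of ATPases that unfold the substrate.

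The 8 libraries were made from PFC tissue of wild-type (WT) C57BL/6NCrljOri male mice, 4 given AAV2/1-hsyn-RNF146-eGFP and 4 given AAV2/1-hsyn-eGFP. The virus had been injected into the PFC of both sides at 6 weeks of age, and the tissue was taken 4 weeks later. Every animal therefore carried a viral vector and eGFP, and the human synapsin (hsyn) promoter limits the transgene to neurons, while the RNA comes from all cells of the dissected tissue. In bulk tissue, fewer cells of a type and less RNA per cell cannot be told apart. The vector carries mouse *Rnf146*, so that reads of the vector and of the mouse's own gene are counted under 1 symbol. According to the paper, sequencing used mice in which *Rnf146* overexpression and social deficits had been established. The RNF146 libraries therefore need not stand for all injected mice.

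The deposited values are on a log2 scale and run from 7.86 to 18.79. For every gene, the eGFP and the RNF146 value of the same replicate number have the same sum in each of the 4 pairs, to within 1.4e-13. A gene therefore holds its mean and 4 pair differences, and a difference below is always that of the RNF146 library less the eGFP library of the same number, on that log2 scale. The depth of the libraries is unknown, and levels were not compared between genes, since the values are not per length. The limma fit was run with a block for the replicate number and with Benjamini-Hochberg adjustment over all 15039 genes, and the threshold for a call was an adjusted p of 0.1. The p-values refer to the differences of these 4 pairs, and the labels do not say what the libraries of a pair share. The 4 differences of a gene leave 3 degrees of freedom. Limma combined their spread with a spread estimated from all genes, which gave 8.40 degrees of freedom. A p-value is therefore not set by the gene's own spread alone.

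*Rnf146* served as the check of the labels. Its values were 10.35, 10.50, 10.43 and 10.47 in the 4 eGFP libraries and 13.17, 13.01, 13.09 and 13.05 in the 4 RNF146 libraries. Every RNF146 library was above every eGFP library. The mean difference was 2.64 ± 0.13 (SD over 4 pairs), with an adjusted p of 3.2e-07 from limma.

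The proteasome genes moved little. Their median difference was 0.00 (0.0038), beside 0.00 (0.00086) over all genes, and the 47 mean differences ran from -0.11 for *Psmb8* to 0.21 for *Psmc6*. A mean difference was within 0.1 of 0 for 45 of the 47 genes (95.7%), and for 79.4% of all genes. The 95% confidence interval from limma lay within 0.2 of 0 on either side for 43 of the 47 (91.5%) and for 66.3% of all genes. These shares were not matched for value or spread. The median deposited value was 10.75 for the 47 genes and 9.87 for all genes, and the median SD over pairs was 0.08 and 0.10. The 4 genes with a wider reach were *Psmb8*, *Psmb10*, *Psmc6* and *Psme3ip1*.

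One proteasome gene, *Psmc6*, was called, and it was higher in RNF146 libraries. Over all genes 188 (1.25%) were called, 123 (0.818%) higher and 65 (0.432%) lower. No proteasome gene was called lower, and *Psmc6* was also the single one with an unadjusted p below 0.05 in limma, a level that 1870 of all genes (12.4%) reached. Since the values are centred within pairs, the libraries of the 2 groups are fully separated exactly when the 4 pairs share 1 direction. This was the case for 5 proteasome genes (10.6%) that were higher, *Psma2*, *Psmc4*, *Psmc6*, *Psmd10* and *Psme4*, beside 10.4% of all genes. It was the case for 1 (2.13%) that was lower, *Psmc3*, beside 10.2% of all genes.

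**Figure D1:**
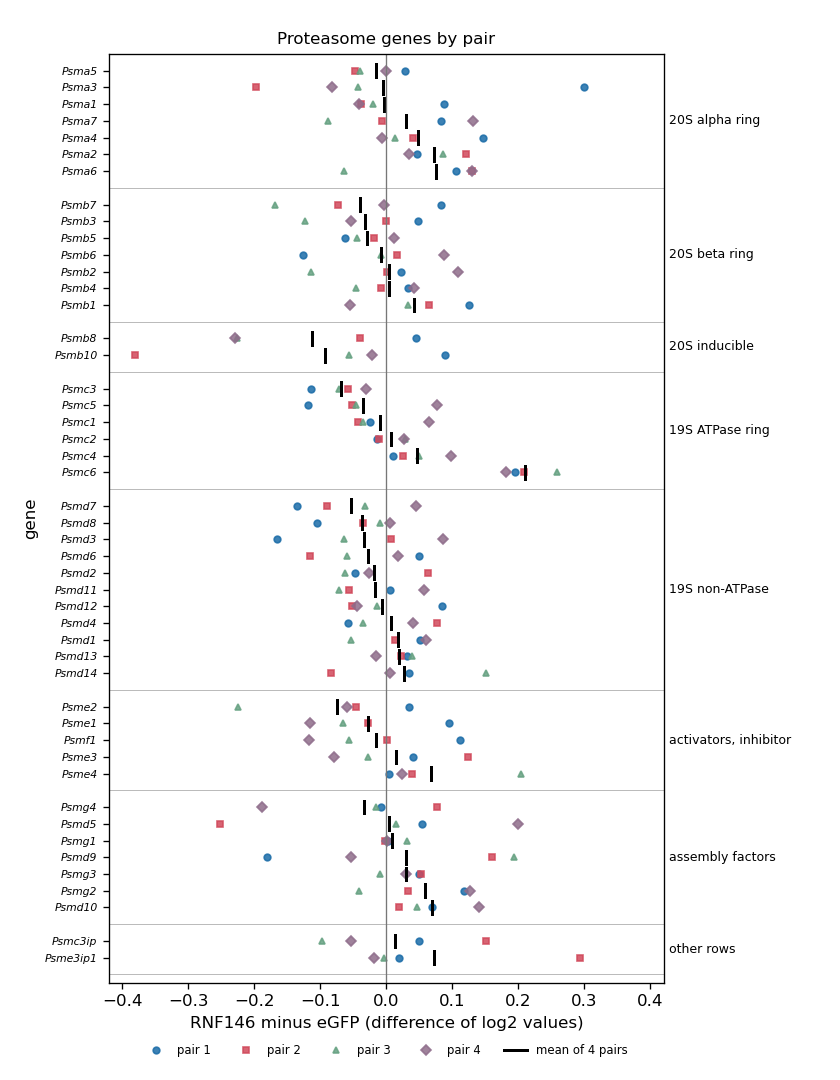
Pair differences (RNF146 minus eGFP, log2) of the 47 proteasome genes, by role. Each marker is 1 pair of libraries and each black bar the mean of the 4 pairs; the 4 markers of *Psmc6* lie between 0.18 and 0.26, while most other means lie within 0.1 of 0.

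*Psmc6* encodes an ATPase of the ring that unfolds substrates. Its values were 10.84, 10.84, 10.81 and 10.85 in the eGFP libraries and 11.04, 11.04, 11.07 and 11.03 in the RNF146 libraries. The groups did not overlap. The spread within a group follows from that of the pair differences, because the values are centred within pairs, and does not show how close the animals were. The pair differences were 0.19, 0.21, 0.26 and 0.18, with a mean of 0.21 ± 0.03 (SD over 4 pairs), a 95% confidence interval from 0.11 to 0.31 and an adjusted p of 0.092 from limma. The call was close to the threshold. The adjusted p was 0.342 without pair 2, 0.196 without pair 3 and 0.330 without pair 4, and the difference itself stayed between 0.19 and 0.22 when any 1 pair was left out. *Psmc6* is also in the study's own list of changed genes, which came from these libraries, so its call here is not independent evidence.

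The gene lies on chr14:45567215-45587169, plus strand, of GRCm39, and no other gene of GENCODE vM39 overlaps it. Of the 3200 words of 31 bases in its longest transcript, 31 (0.969%) also occur in transcripts of other genes. The promoter that RefSeq gives on the older build GRCm38.p6 was searched on both strands for TGACNNNGC, the core of the antioxidant response element, a motif known from promoters that respond to NFE2L1 and NFE2L2. The motif was found in 6 of the 40 proteasome promoters that could be matched (15%) and in 7 of the 26 E2 promoters (26.9%). Among the 11133 promoters of genes in the deposited table, 16.6% held it. The matches are descriptions of letters, not of bound sites. They are shown for *Psmc6* and for 3 other proteasome genes that were not called, with the match in capitals. Each is read on the gene's own strand, so that a match on the other strand appears as the reverse complement of the motif. The remaining matches are not shown.
Psmc6, chr14:45329587-45329615, plus strand: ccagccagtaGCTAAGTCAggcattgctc
Psmb5, chr14:54618024-54618052, minus strand: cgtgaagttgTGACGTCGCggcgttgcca
Psmb6, chr11:70525338-70525366, plus strand: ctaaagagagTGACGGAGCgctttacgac
Psme4, chr11:30771758-30771786, plus strand: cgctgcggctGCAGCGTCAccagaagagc

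The match in the *Psmc6* promoter begins at position -227 relative to the gene's start, and those of *Psmb5*, *Psmb6* and *Psme4* at -47, -9 and -7. *Psmb5* and *Psmb6* encode catalytic beta subunits, and neither was called. The whole 250 bases before the start of *Psmc6*, shown because it is the called proteasome gene, read as follows on chr14:45329574-45329823, plus strand, of GRCm38.p6, with the same match in capitals.
Psmc6 promoter: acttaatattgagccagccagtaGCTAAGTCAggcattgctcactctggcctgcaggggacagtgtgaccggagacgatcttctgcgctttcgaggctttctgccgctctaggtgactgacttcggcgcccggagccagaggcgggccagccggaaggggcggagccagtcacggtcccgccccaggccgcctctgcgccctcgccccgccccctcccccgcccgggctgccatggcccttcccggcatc
A CCAAT box was found in 14 of the 40 proteasome promoters (35.0%), in 5 of the 26 E2 promoters (19.2%) and in 42.9% of those of the deposited genes. The nuclear respiratory factor motif, searched in the same way, was found in 2 (5%), 1 (3.85%) and 2.21% of them.

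The other ATPases of the ring did not reach the difference of *Psmc6*. The highest difference among the 5 of them was 0.01, 0.02, 0.05 and 0.10 in the 4 pairs, below *Psmc6* in every pair. Each of these values was that of *Psmc4*, which was thus also higher in all 4 pairs. Its mean was 0.05 ± 0.04 (SD over 4 pairs; adjusted p = 0.733, limma). *Psmc6* exceeded the mean of the other 5 by 0.25, 0.24, 0.27 and 0.13, a mean of 0.22 ± 0.06 (SD over 4 pairs), a contrast that was chosen after the values had been seen. Its exact two-sided sign-flip p of 0.125 is the smallest that 4 pairs can give, so this test could not reach 0.05. *Psmc3*, another ATPase of the ring, had the lowest difference of the 6, -0.07 ± 0.03 (SD over 4 pairs), with an adjusted p of 0.557 in limma. It was lower in all 4 pairs, at -0.11, -0.06, -0.07 and -0.03. The 6 ATPases had a median of 0.00 (-0.0013).

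The core barrel showed no called gene. The 7 alpha subunits measured, which form the outer rings and their gate, had a median difference of 0.03 and ran from -0.02 for *Psma5* to 0.07 for *Psma6*. The 7 constitutive beta subunits, which form the inner rings, had a median of -0.01 (-0.0082) and ran from -0.04 for *Psmb7* to 0.04 for *Psmb1*. *Psmb5*, the chymotrypsin-like catalytic subunit, had values of 10.71, 10.69, 10.70 and 10.67 in eGFP libraries and 10.65, 10.67, 10.65 and 10.68 in RNF146 libraries. The 2 ranges overlapped, and the mean difference was -0.03 ± 0.03 (SD over 4 pairs). The alpha subunit *Psma3* had the widest spread of the 47 genes. Its difference was 0.30 in pair 1 and -0.20, -0.04 and -0.08 in the other pairs, which gave a mean of -0.01 (-0.0054) with an SD of 0.21.

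The 11 non-ATPase subunits of the cap had a median of -0.02 and stayed between -0.05 and 0.03. The lowest was *Psmd7*, a structural partner of the deubiquitinase, at -0.05, and the highest was *Psmd14*, the deubiquitinase that removes the chain from the substrate, at 0.03. *Psmd4*, a receptor for ubiquitin chains, was at 0.01 ± 0.06 (SD over 4 pairs). None was higher or lower in all 4 pairs.

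Of the 7 assembly factors, 6 had a mean difference above 0, with a median of 0.03, and none was called. The highest was *Psmd10*, which helps assemble the ATPase ring, at 0.07 ± 0.05 (SD over 4 pairs) and higher in all 4 pairs, with an adjusted p of 0.593 in limma. The lowest was *Psmg4*, a chaperone of the alpha ring, at -0.03. Of the 5 activators and inhibitors, *Psme4*, the large activator PA200, was highest at 0.07 and *Psme2*, a subunit of the activator PA28, lowest at -0.07.

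*Psmb8* and *Psmb10*, the catalytic subunits that replace constitutive ones under interferon, had the 2 lowest means of the proteasome genes. *Psmb8* was at 8.44, 8.48, 8.57 and 8.57 in eGFP libraries and at 8.48, 8.44, 8.34 and 8.34 in RNF146 libraries. The ranges of the 2 groups overlapped. Its pair differences were 0.04, -0.04, -0.23 and -0.23, with a mean of -0.11 ± 0.14 (SD over 4 pairs) and an adjusted p of 0.462 in limma. Those of *Psmb10* were 0.09, -0.38, -0.06 and -0.02, with a mean of -0.09 ± 0.20 (SD over 4 pairs) and an adjusted p of 0.674. *Psmb9* is not analysed here.

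These 2 genes were set beside *Psme1* and *Psme2*, the interferon-inducible subunits of PA28, and *Ube2l6*, the E2 enzyme of the interferon-induced modifier ISG15. This grouping was chosen after the values had been seen and has no test. All 5 genes were above 0 in pair 1, between 0.03 and 0.10. All 15 values of the other 3 pairs were below 0, with medians of the 5 genes of -0.05, -0.15 and -0.06. These signs were not particular to the 5 genes. Among the other members, they were also found in the core subunits *Psma1*, *Psma3*, *Psma5*, *Psmb3* and *Psmb7*, the cap subunit *Psmd12* and *Ube2v1*. The median of the 5 measured interferon response markers was 0.03, -0.09, 0.13 and -0.13 in pairs 1 to 4. One of them, *B2m*, which encodes the light chain of MHC class I, had the signs of the 5 genes, at 0.09, -0.42, -0.28 and -0.58, with a mean of -0.30 and an adjusted p of 0.244 in limma. The median of the 6 microglial markers was -0.13, -0.24, -0.12 and -0.07. None of either list was called, and their part in the values of the 5 genes was not tested.

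The E2 genes also moved little as a group, and none of the 34 was called. Their median difference was 0.01 (0.0081), and they ran from -0.16 for *Ube2ql1* to 0.11 for *Ube2d1*. The lowest adjusted p in limma was 0.186. An unadjusted p below 0.05 in limma was found for 3 of the 34 genes, *Ube2ql1*, *Ube2j2* and *Ube2g2*, beside 12.4% of all genes. A mean difference within 0.1 of 0 was found for 29 genes (85.3%), and the 95% confidence interval stayed within 0.2 of 0 for 29 genes as well, those outside being *Ube2ql1*, *Ube2j2*, *Ube2g2*, *Ube2d1* and *Ube2d3*. Higher in all 4 pairs were 4 genes (11.8%), *Ube2d1*, *Ube2d3*, *Ube2q2* and the pseudogene *Ube2n-ps1*, beside 10.4% of all genes. Lower in all 4 pairs were 6 genes (17.6%), *Ube2ql1*, *Ube2j2*, *Ube2g2*, *Ube2m*, *Ube2o* and *Ube2z*, beside 10.2% of all genes.

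*Ube2ql1*, an E2 enzyme related to UBE2Q, had the lowest mean difference and the smallest p of the group. Its values were 12.32, 12.33, 12.31 and 12.35 in eGFP libraries and 12.18, 12.17, 12.19 and 12.15 in RNF146 libraries. Every RNF146 library was below every eGFP library, and the spread within a group again follows from that of the pair differences. The pair differences were -0.14, -0.16, -0.12 and -0.21, a mean of -0.16 ± 0.04 (SD over 4 pairs), with a 95% confidence interval from -0.26 to -0.06 and an adjusted p of 0.186 in limma, which missed the threshold. *Ube2ql1* is in the study's list of changed genes from these libraries. The adjusted p was 0.0026 in limma without the replicate block, a fit that counts the centred values as 8 independent ones and that called 3226 of all genes (21.5%), 4 of the 47 proteasome genes and 5 of the 34 E2 genes. The gene lies on chr13:69846148-69888097, minus strand, of GRCm39. Its exons share 400 and 106 bases with 2 lncRNAs on the opposite strand, and whether the counting used strand is not given in the sources used here.

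Of the 3 E2 enzymes of degradation at the endoplasmic reticulum, none was called. Lower in all 4 pairs were 2 of them, beside 10.2% of all genes. *Ube2j2*, a membrane-anchored E2, was at 10.21, 10.23, 10.13 and 10.21 in eGFP libraries and at 10.05, 10.03, 10.13 and 10.05 in RNF146 libraries. Pair 3 was nearly level, at -0.0046, and the mean was -0.13 ± 0.09 (SD over 4 pairs; adjusted p = 0.345, limma). *Ube2g2*, the E2 partner of the ligases gp78 and HRD1, had differences of -0.07, -0.14, -0.15 and -0.08 and a mean of -0.11 ± 0.04 (SD over 4 pairs; adjusted p = 0.368, limma). *Ube2j1*, the other membrane-anchored E2, was at 0.02 ± 0.07 (SD over 4 pairs; adjusted p = 0.918, limma). *Ube2g2* shares 166 exonic bases with another protein-coding gene on the same strand, and 18.5% of the 31-base words of *Ube2j2* occur in other genes' transcripts.

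The UbcH5 enzymes work with many E3 ligases. *Ube2d1* (UbcH5a) was at 10.36, 10.28, 10.28 and 10.30 in eGFP libraries and at 10.36, 10.44, 10.44 and 10.42 in RNF146 libraries. Its difference was close to 0 in pair 1 (0.0022) and 0.16, 0.16 and 0.12 in the other pairs, with a mean of 0.11 ± 0.07 (SD over 4 pairs) and an adjusted p of 0.405 in limma. *Ube2d3* (UbcH5c) was highest in pair 1, at 0.29, and was at 0.09, 0.03 and 0.01 (0.0066) in the other pairs, with a mean of 0.11 ± 0.13 (SD over 4 pairs) and an adjusted p of 0.489. *Ube2d2a* (UbcH5b) was at -0.01 ± 0.12 (SD over 4 pairs). The related UBE2E enzymes ran from -0.01 for *Ube2e2* to 0.05 for *Ube2e1*, and the median of these 6 genes was 0.02.

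**Figure D2:**
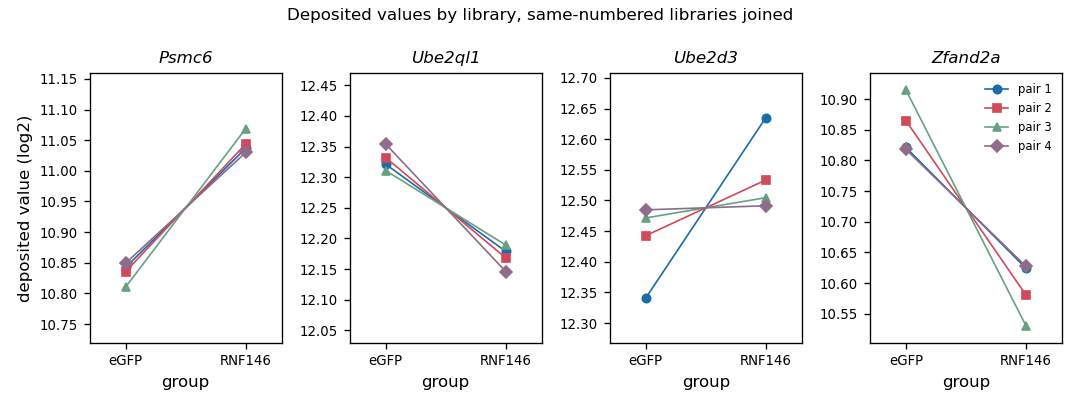
Deposited log2 values of *Psmc6*, *Ube2ql1*, *Ube2d3* and *Zfand2a* in the 4 eGFP and 4 RNF146 libraries, with lines between libraries of the same replicate number. The lines cross at 1 point in each panel because the values are centred within pairs; the groups do not overlap in any of the 4 panels, and the pair differences of *Ube2d3* run from 0.01 to 0.29.

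The remaining E2 enzymes stayed close to 0. Of the 13 other ubiquitin E2 genes, which had a median of 0.01, *Ube2q2* was highest at 0.09 ± 0.08 (SD over 4 pairs; adjusted p = 0.505, limma) and *Ube2ql1* lowest. *Ube2l3*, the E2 of HECT and RBR ligases such as parkin, was at 0.03. *Ube2n*, which builds K63-linked chains with a UBE2V partner, was at 0.02 ± 0.09 (SD over 4 pairs), and *Ube2v1* was lowest of these 3 genes at -0.04. For *Ube2v1*, 81.3% of the 31-base words occur in other genes' transcripts, and for the pseudogene *Ube2n-ps1* all of them (100%) occur in *Ube2n*, so that the values of these rows are uncertain. Of the proteasome genes, *Psmb5* (55.9%), *Psma5* (52.0%), *Psmg4* (51.6%), *Psmd2* (40.0%) and *Psme2* (39.0%) had the highest shares of such words, and their values are uncertain in the same way.

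Of the enzymes for ubiquitin-like proteins, *Ube2m*, an E2 of NEDD8, was lowest at -0.07, and the median of the 4 measured genes was -0.03. *Ube2s* and *Ube2t*, with roles in the cell cycle and in DNA repair, were at 0.05 and 0.04.

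**Figure D3:**
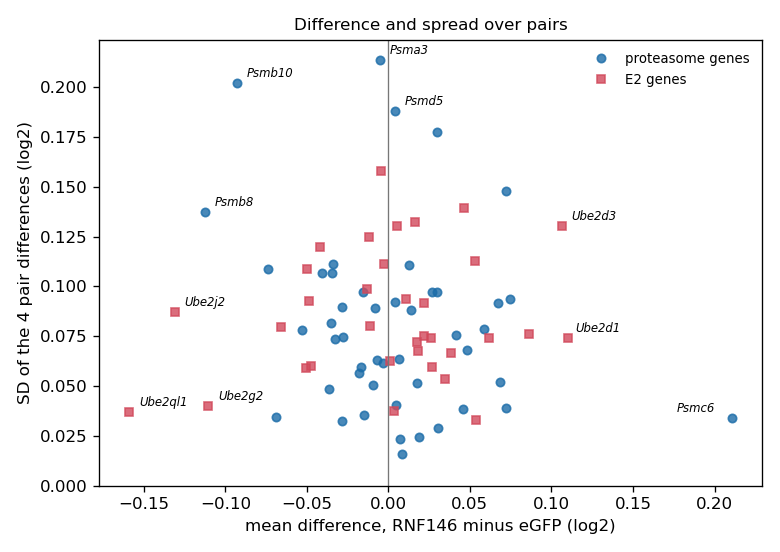
Mean difference (RNF146 minus eGFP, log2) against the SD of the 4 pair differences (log2) for the 47 proteasome genes (circles) and the 34 E2 genes (squares). *Psmc6* stands at 0.21 with an SD of 0.03, and *Psma3* has the largest SD (0.21) at a mean near 0.

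The pairs differed more than the groups did. The median of the proteasome genes was 0.03, 0.00 (-0.00034), -0.04 and 0.01 in pairs 1 to 4, and 34, 23, 13 and 26 of the 47 genes were above 0. The median of the E2 genes was 0.05, -0.05, 0.03 and 0.00 (0.00068), with 21, 12, 21 and 17 of the 34 genes above 0. Over all genes the share above 0 was between 49.2% and 51.1% in each pair. The SD of a gene's 4 pair differences had a median of 0.08 in both groups and of 0.10 over all genes.

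**Figure D4:**
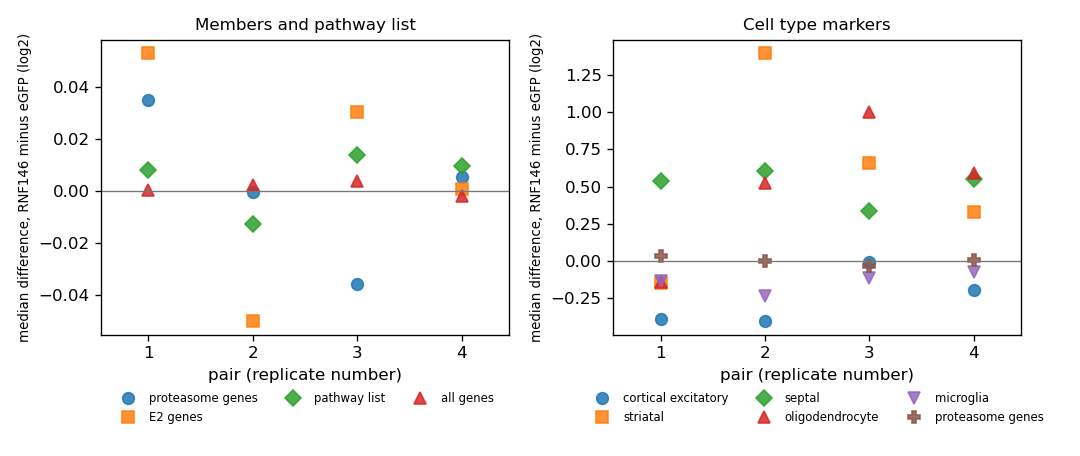
Median difference (RNF146 minus eGFP, log2) in each of the 4 pairs. Left, proteasome genes, E2 genes, the list of other ubiquitin-proteasome genes and all genes; right, cell type marker lists beside the proteasome genes, on a wider axis. The marker medians run from -0.41 to 1.39, while those of the proteasome genes stay between -0.04 and 0.03.

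Several lists of cell type markers had larger medians than the described genes. The 6 septal markers, all of them called higher, had medians of 0.54, 0.60, 0.34 and 0.55 in the 4 pairs. The 6 cortical excitatory markers, with 2 called lower, had medians of -0.39, -0.41, 0.00 (-0.0045) and -0.19. The 7 striatal markers were at -0.15 in pair 1 and at 1.39, 0.66 and 0.33 in the other pairs, and the 6 oligodendrocyte markers at -0.14, 0.52, 1.00 and 0.59, with none called in either list. Of the other lists, 3 of 6 interneuron and 2 of 2 measured ependymal markers were called higher. The called interneuron markers were *Gad1*, *Gad2* and *Slc32a1*. The other 3, *Pvalb*, *Sst* and *Vip*, had means below 0, at -0.03, -0.06 and -0.23, and were not called. None of the 6 astrocyte or 5 endothelial markers was called, with medians of -0.01 and 0.03. *Psmc6* and the medians of the septal, interneuron and ependymal lists were above 0 in all 4 pairs. *Psmc6* was highest in pair 3, where the septal median was lowest and the ependymal median highest. The oligodendrocyte, endothelial and astrocyte medians were also highest in pair 3, at 1.00, 0.12 and 0.00 (0.0039). The interneuron medians were 0.06, 0.21, 0.25 and 0.32 in pairs 1 to 4. The ependymal medians were 0.26, 0.25, 0.48 and 0.34 in pairs 1 to 4. *Ube2ql1* was below 0 in all 4 pairs and closest to 0 in pair 3, at -0.12. The cortical excitatory median was also closest to 0 in pair 3, where 3 of the 6 markers were above 0. *Ube2ql1* was lowest in pair 4, at -0.21, while the cortical excitatory median was lowest in pair 2, at -0.41, and at -0.19 in pair 4. The microglial median was also below 0 in all 4 pairs, and closest to 0 in pair 4, at -0.07. The 2 called cortical markers, *Slc17a7* and *Neurod2*, were below 0 in all 4 pairs. The part of tissue composition in the differences of *Psmc6* and *Ube2ql1* was not tested.

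The other genes of the pathway were taken from a list of 44 measured genes. It holds E1 enzymes, E2 enzymes under other names, ubiquitin genes, shuttles, proteasome partners and transcriptional regulators. The median difference was 0.02, 1 gene was called lower and none higher, beside 0.432% and 0.818% of all genes. Of the 44, 5 (11.4%) were higher and 6 (13.6%) lower in all 4 pairs, beside 10.4% and 10.2% of all genes. An unadjusted p below 0.05 in limma was found for 4 genes, beside 12.4% of all genes, among them *Adrm1*, *Ecpas* and *Zfand2a*.

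The called gene was *Zfand2a*, an arsenite-inducible protein that associates with the proteasome. Its values were 10.82, 10.87, 10.92 and 10.82 in eGFP libraries and 10.62, 10.58, 10.53 and 10.63 in RNF146 libraries. The groups did not overlap. The pair differences were -0.20, -0.28, -0.38 and -0.19, a mean of -0.26 ± 0.09 (SD over 4 pairs), with a 95% confidence interval from -0.38 to -0.15 and an adjusted p of 0.074 in limma. The adjusted p was 0.302 without pair 2, 0.160 without pair 3 and 0.260 without pair 4. The gene lies on chr5:139456960-139470304, minus strand, of GRCm39.

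*Ecpas*, a scaffold that binds the assembled proteasome, was chosen after its values had been seen. Its differences were 0.25, 0.22, 0.10 and 0.16 and its adjusted p was 0.157 in limma. *Adrm1*, a ubiquitin receptor of the cap, was at -0.12 ± 0.10 (SD over 4 pairs; adjusted p = 0.387, limma), and *Pomp*, the maturation factor of the core, at 0.10 ± 0.18 (SD over 4 pairs; adjusted p = 0.575, limma). *Uba1*, the main E1 enzyme, was at -0.06, and the polyubiquitin gene *Ubb* was at 0.01 ± 0.17 (SD over 4 pairs).

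*Nfe2l1*, the transcription factor that raises proteasome genes when proteasome activity is low, had differences of -0.20, -0.18, 0.22 and -0.17. Pair 3 had the opposite sign to the other 3. The mean was -0.08 ± 0.20 (SD over 4 pairs), with an adjusted p of 0.708 in limma.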

How the data were processed

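RNA sequencing (TruSeq stranded mRNA) covered 4 RNF146 and 4 eGFP libraries. The authors trimmed reads with Cutadapt, quantified transcripts with Salmon 1.9.0 against GENCODE vM30 (GRCm39), and deposited gene-level log2 values, centred within same-numbered pairs. The authors' processing notes also name DESeq2. The transformation and the centring are not given in the sources used here, and depth is unknown. The 8 columns were matched to samples by name, with none left over.

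The model used lmFit and eBayes with trend (limma 3.58.1, R 4.3.3), a block for the replicate number and adjustment over 15039 genes. The code was run on simulated pairs with known shifts, as a check of direction. The simulated differences were independent between genes, so the run does not give error rates for these data. The replicate numbers of the labels and the centring give the pairing; the deviations of same-numbered libraries correlate at -1. Other steps used Python 3.11.15 with numpy 2.4.6 and pandas 2.3.3. Of the 81 genes, 80 matched GENCODE vM39 and 66 a RefSeq promoter.

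The members and lists were chosen with earlier results of these data known. Named were *Rnf146*, called members, the 5 smallest p in each group, the highest and lowest gene of each role, a fixed list of subunits and E2 enzymes, and called or listed pathway genes. A few genes that this rule names are not reported here. *Psmb6*, *Psmd2*, *B2m*, *Psmc4*, *Ube2o*, *Ube2z*, *Ube2e1*, *Psma1*, *Psma3*, *Psmb3*, *Psmd12*, *Psme1*, *Ube2l6*, *Psme3ip1*, *Ecpas* and the pseudogenes fall outside this rule and were named after their values were seen. The same holds for the named cortical excitatory and interneuron markers. The alternatives were quantile normalization, median centring, leaving out the genes of lowest mean value, robust and untrended variances, no block, a threshold of 0.05, fewer rows and each pair left out.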

Additional observations from a re-analysis of the deposited data

Results flagged for a closer look

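The pair differences of 42 reported values were examined for a pair far from the other 3, and 2 were found. For *Psma6*, an alpha subunit, the gap between pair 3 (-0.06) and the nearest other pair (0.11) was 0.875 of the range. For *Nfe2l1*, the gap between pair 3 (0.22) and the nearest other pair (-0.17) was 0.942 of the range. Both exceed the 95% critical value of Dixon's test for 4 values, which chance exceeds in about 1 of 20 cases. Among the 81 proteasome and E2 genes 5 exceeded it, and 5.39% of all genes did.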

How the results depend on the processing

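Without the replicate block, limma called 3226 of the 15039 genes, 4 proteasome genes, 5 E2 genes and 8 genes of the pathway list. With quantile normalization no proteasome gene was called (*Psmc6*, adjusted p = 0.115) and 3 were higher in all 4 pairs. At an adjusted p of 0.05, 80 genes were called, with 0 of the proteasome genes and 0 of the pathway list. When each pair was left out in turn, the called genes ranged from 14 (without pair 4) to 421 (without pair 1), with 42 without pair 2, and the called proteasome genes and pathway genes each from 0 to 1. *Psmc6* was called without pair 1 and not without pair 2, 3 or 4. No E2 gene was called in any of the 4. In the remaining 3 pairs, 5 to 10 proteasome genes were higher throughout and 1 to 11 lower, and 5 to 8 E2 genes higher and 6 to 8 lower, beside 15.3% to 18.4% of all genes higher and 14.8% to 17.8% lower. The 11 proteasome genes (23.4%) were those lower without pair 1, where 17.8% of all genes were. The direction of 10 genes reversed in at least 1 of the 4: the range was -0.0117 to 0.0622 for *Ube2n*, -0.153 to 0.00348 for *Psmb10*, -0.0522 to 0.0196 for *Ube2e2*, -0.0173 to 0.0276 for *Psmd4*, -0.0635 to 0.031 for *Ube2d2a*, -0.0499 to 0.0615 for *Ubb*, -0.0817 to 0.00222 for *Psmb7*, -0.0146 to 0.0638 for *Psmd14*, -0.00988 to 0.0453 for *Ube2j1* and -0.0707 to 0.0177 for *Psmg4*. The cause of these changes was not tested. Of 270 values of 39 genes under the other settings, 258 kept their direction and their side of the threshold. Median centring, leaving out the genes of lowest mean value, and robust or untrended variances changed none of the calls of *Psmc6* and *Zfand2a*. Depth is unknown, so what it limits could not be given.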
